A study of Mus musculus with 24 samples.

Results

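The genes described here were 36 genes of the mitotic machinery, taken by name from 21887 protein-coding genes of the mouse. They were followed through chromatin immunoprecipitation sequencing (ChIP-seq) peak lists of V6.5 mouse embryonic stem cells. A peak was assigned to a gene when its midpoint lay inside the gene span or within 20 kb of it on the mm10 build. The genes were sorted by function into 8 of the entry switch, 6 mitotic kinases and passenger complex genes, 5 of the spindle checkpoint, 5 of the anaphase-promoting complex and anaphase, 6 of the spindle and cytokinesis, 3 of the centromere and 3 of chromosome condensation. In the 4 lists of acetylated lysine 27 of histone H3 (H3K27ac), all 36 genes had at least 1 peak in every list, with 164 and 189 peaks in asynchronous cells and 127 and 109 in mitotic cells. Over all genes, 72.8% and 72.1% had a peak in the asynchronous lists and 69.2% and 66.0% in the mitotic lists. Lists of the transcription factor Klf4 held 25, 59 and 58 peaks by these genes in asynchronous cells and 13, 6 and 13 in mitotic cells. These lay by 19, 28 and 27 genes, then by 10, 5 and 10. Over all genes, 40.8%, 58.7% and 56.2% had a Klf4 peak in the asynchronous lists and 29.5%, 20.5% and 34.9% in the mitotic lists. Lists of Oct4 held 6 peaks in asynchronous cells and 2 and 10 in mitotic cells, and those of Sox2 held 7, then 6 and 1. Genes with an Oct4 peak numbered 5, then 2 and 8, against 13.6%, then 4.77% and 17.9% of all genes. Those with a Sox2 peak numbered 6, then 5 and 1, against 10.9%, then 14.5% and 6.36%.

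The series asked which factors and marks remain on the chromatin of stem cells in mitosis. V6.5 cells, of the strain C57BL/6-129, were grown on feeder cells with serum and LIF. They were then passaged on gelatin with the MEK inhibitor PD98059 and the Gsk3 inhibitor Chir99021. Mitotic cells were collected by shake-off after 7 h in nocodazole, a drug that blocks microtubule assembly, at a labelled dose of 100 ug/ml. Asynchronous cells shared the line and the medium, had no nocodazole and were a mix of cycle stages that also holds some mitotic cells. The purity of the mitotic cells was not given in the sources used here. H3K27ac had 2 libraries in each state, Klf4 3 in each, and Oct4 and Sox2 1 asynchronous and 2 mitotic libraries each. Labels did not say that libraries of a group came from separate cultures, so agreement between them may be technical. A further Klf4 list, from a mix of stem cells and neural progenitors, held 1334 peaks and 0 by these genes. Only 4.29% of all genes had a peak in that list, and 98.0% of its peaks had a q above 0.05. The 0 is therefore not read as a result about these genes.

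Cyclin B with Cdk1 drives cells into mitosis, Wee1 restrains Cdk1 and the Cdc25 phosphatases release it. The spindle checkpoint holds the anaphase-promoting complex until chromosomes are attached, after which securin and cyclin B are destroyed and separase cuts cohesin. Transcription of many of these genes peaks late in the cell cycle, through promoters that often carry CCAAT boxes, bound by NF-Y, and a cell cycle genes homology region, TTTGAA, bound by the MuvB complexes. H3K27ac marks active promoters and enhancers. Klf4, Oct4 and Sox2 are pluripotency factors, and Klf4 binds CACCC and related GC-rich elements.

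The promoter sequences below set the regulatory context of the results. They are the 250 bases before the annotated start, read 5′ to 3′ on the strand of the gene, from the RefSeq table of GRCm38.p6 (mm10). In the first 5, capitals mark CCAAT and TTTGAA on either strand, so that ATTGG and TTCAAA are the same motifs read on the other strand. Top2a and Ccnb2 are shown because they carried both motifs and had no Klf4 peak at the start in any library. Cdk1 and Ube2c are shown because Klf4 was listed there in asynchronous cells and in no mitotic library. Cdc25b is shown because it had no H3K27ac peak at its start in mitotic cells.
Top2a, chr11:99024190-99024439, minus strand: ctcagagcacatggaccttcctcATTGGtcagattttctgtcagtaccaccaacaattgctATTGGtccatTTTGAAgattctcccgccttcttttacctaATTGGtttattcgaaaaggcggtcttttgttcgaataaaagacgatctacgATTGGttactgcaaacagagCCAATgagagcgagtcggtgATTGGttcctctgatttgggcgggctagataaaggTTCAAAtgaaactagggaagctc
Ccnb2, chr9:70421555-70421804, minus strand: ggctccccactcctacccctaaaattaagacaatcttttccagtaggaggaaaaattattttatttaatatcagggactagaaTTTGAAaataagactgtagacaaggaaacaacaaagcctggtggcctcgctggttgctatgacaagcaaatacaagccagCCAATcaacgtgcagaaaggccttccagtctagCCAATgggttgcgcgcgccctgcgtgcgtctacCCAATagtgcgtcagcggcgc
Cdk1, chr10:69352913-69353162, minus strand: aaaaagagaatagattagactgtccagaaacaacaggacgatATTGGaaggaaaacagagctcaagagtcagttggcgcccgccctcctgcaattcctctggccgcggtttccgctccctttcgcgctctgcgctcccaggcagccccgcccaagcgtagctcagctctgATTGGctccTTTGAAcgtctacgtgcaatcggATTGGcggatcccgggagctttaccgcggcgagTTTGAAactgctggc
Ube2c, chr2:164769679-164769928, plus strand: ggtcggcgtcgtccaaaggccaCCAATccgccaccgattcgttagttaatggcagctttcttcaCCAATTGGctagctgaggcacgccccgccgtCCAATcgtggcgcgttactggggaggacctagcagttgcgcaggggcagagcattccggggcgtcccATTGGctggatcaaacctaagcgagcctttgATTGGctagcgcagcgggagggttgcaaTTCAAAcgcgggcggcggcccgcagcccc
Cdc25b, chr2:131186698-131186947, plus strand: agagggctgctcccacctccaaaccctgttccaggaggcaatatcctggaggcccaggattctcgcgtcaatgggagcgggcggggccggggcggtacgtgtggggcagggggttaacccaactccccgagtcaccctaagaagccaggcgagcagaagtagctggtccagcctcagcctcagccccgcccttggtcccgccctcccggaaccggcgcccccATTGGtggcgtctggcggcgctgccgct

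Birc5 and Prc1 are shown because Klf4 was listed at their starts in both states, and here the capitals mark CACCC, read on either strand (GGGTG on the other).
Birc5, chr11:117848987-117849236, plus strand: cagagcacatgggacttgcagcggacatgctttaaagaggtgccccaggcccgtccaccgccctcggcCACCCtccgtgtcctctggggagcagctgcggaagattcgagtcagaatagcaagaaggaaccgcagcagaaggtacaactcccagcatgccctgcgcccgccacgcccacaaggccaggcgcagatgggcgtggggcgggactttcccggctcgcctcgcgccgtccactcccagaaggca
Prc1, chr7:80294201-80294450, plus strand: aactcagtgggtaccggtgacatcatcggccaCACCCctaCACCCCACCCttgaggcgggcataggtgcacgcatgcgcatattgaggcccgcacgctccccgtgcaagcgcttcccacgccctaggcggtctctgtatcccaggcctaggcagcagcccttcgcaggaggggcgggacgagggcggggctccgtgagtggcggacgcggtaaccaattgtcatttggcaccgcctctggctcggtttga

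Of the 36 genes, 28 had a promoter in the table. CCAAT was found in 24 of these 28 (85.7%), against 36.5% of 17492 promoters of the same length and 37.6% of the 8842 with H3K27ac in both asynchronous libraries. At least 2 CCAAT matches were present in 13 of 28 (46.4%), against 12.0% of all promoters, and overlapping matches on the 2 strands, as in Ube2c, were counted separately. TTTGAA was found in 10 (35.7%), against 15.1% of all and 10.2% of acetylated promoters. Those 10 promoters, of Bub3, Ccnb2, Cdc20, Cdk1, Espl1, Kif11, Ncapd2, Ncapg, Top2a and Ube2c, all held CCAAT as well, a combination found in 5.53% of all promoters. Of the 12 TTTGAA matches, 8 ended within the last 50 bases before the start, against 14.2% of TTTGAA matches over all promoters. In Cdk1 a match began 15 bases and another 71 bases before the start, and in Cdc20 the match began 18 bases before it. The variant TTTAAA, searched on both strands, was in 5 of 28 (Birc5, Ccnb1, Cenpa, Cenpf and Plk1), against 11.3% of all. CACCC was in 12 of 28 (42.9%), against 53.3% of all promoters, and GGGCGG, searched on both strands and free to overlap CACCC, in 19 (67.9%), against 42.7% of all and 62.2% of acetylated promoters. A match is a run of letters and not a measured binding site, and the genes were not chosen by any of these values.

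Total list lengths ran from 30771 to 47475 peaks for H3K27ac, 3795 to 21307 for Klf4, 1246 to 5282 for Oct4 and 1940 to 4537 for Sox2. For H3K27ac and Klf4 each mitotic list was shorter than each asynchronous one. Read depth was not in the lists, so the length of a list is the only measure of yield. H3K27ac of asynchronous cells came from project EC-DG-3458 and that of mitotic cells from EC-DG-3514, so state and project cannot be told apart for this mark. Klf4 had both states within project EC-EA-3702 (asynchronous 3 and mitotic 3), and Oct4 and Sox2 came from that project alone. Klf4 asynchronous 1 came from EC-EA-2697, asynchronous 2 from EC-EA-2643, and mitotic 1 and 2 from EC-DG-3514. Among these other Klf4 libraries state and project cannot be told apart. As a check of the labelled cell type, 8 of 8 naive pluripotency genes had H3K27ac at the start in both asynchronous libraries and 7 of 8 in both mitotic libraries, Esrrb being the exception. No gene of 7 feeder fibroblast genes had it in both libraries of either state. Of 6 neural progenitor genes, Sox1, Nes, Olig2 and Lhx2 had it in both asynchronous libraries and Sox1 in both mitotic libraries.

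H3K27ac was present at the starts of all 36 genes in asynchronous cells and at nearly all of them in mitotic cells. A peak within 1 kb of the start was listed in both asynchronous libraries for 36 of 36 genes, against 49.9% of all genes. It was listed in both mitotic libraries for 34 of 36, against 38.2% of all genes and 74.0% of genes with an asynchronous start peak. The exceptions were Cdc25b, with no peak at the start in a mitotic library (1 of 36, against 13.9% of genes with an asynchronous start peak), and Cdc25c, with a peak in mitotic 2 alone. Where a gene had no promoter entry (Ccna2, Aurkb, Cdc25c, Foxm1, Tpx2, Kif20a, Incenp and Wee1), either end of the gene span served as its start. With the 28 genes of known start alone, 28 had the asynchronous and 27 the mitotic peak.

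**Figure D1:**
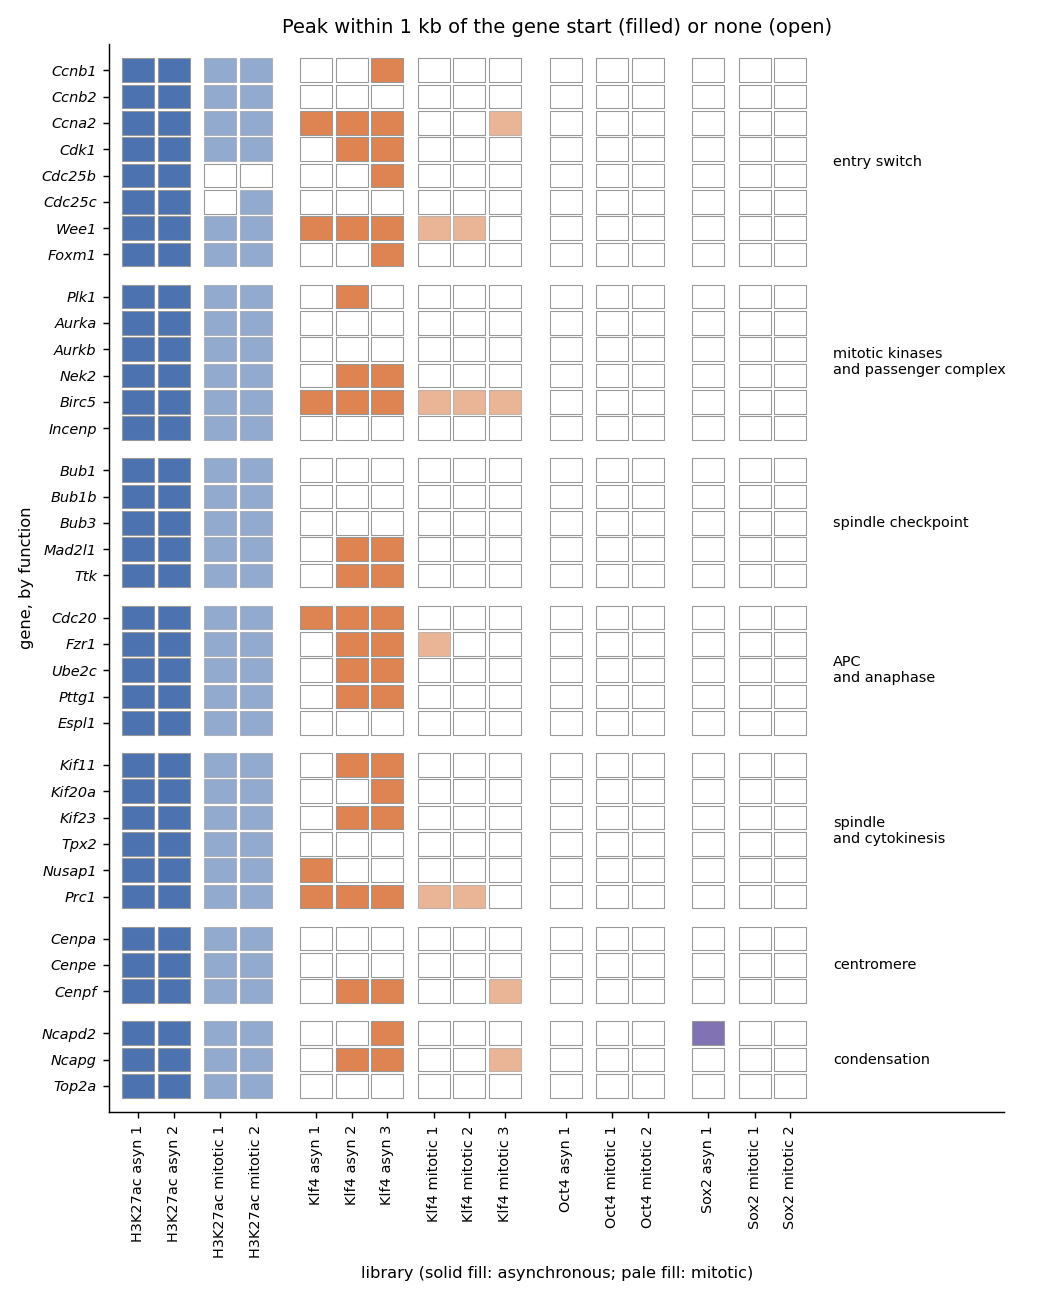
Peaks within 1 kb of the start of each gene (rows, by function) in each of the 16 stem cell libraries (columns). Filled squares are listed peaks, solid for asynchronous and pale for mitotic libraries. H3K27ac fills all squares but 3, those of Cdc25b in both mitotic libraries and Cdc25c in mitotic 1, Klf4 fills far fewer squares in mitotic than in asynchronous libraries, and Oct4 and Sox2 are nearly empty.

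Start peaks of these genes ranked high within their own lists. The rank is the percentile of a peak's deposited −log10 p in its list, with 100 the strongest. Over the 36 genes the median rank was 93.3 and 93.0 in asynchronous 1 and 2, where the medians over all genes with a start peak were 80.9 and 80.4. In mitotic 1, with 34 genes, the median was 85.7, and in mitotic 2, with 35 genes, 86.3, against 76.0 and 73.0 over all genes with a start peak. Lists differ in length, so a rank in one state is not to be read against a rank in the other. Kif20a, a kinesin of the central spindle, had the highest asynchronous ranks (99.7 and 99.7) and folds of 43.3 and 38.9, with folds of 20.1 and 15.2 in mitotic cells. Espl1, which encodes separase, was acetylated at the start in all 4 libraries at folds of 5.15, 3.64, 5.81 and 3.94, at ranks of 49.9, 10.4, 66.1 and 17.6 in the same order (asynchronous 1 and 2, mitotic 1 and 2). The fold is the authors' enrichment of a peak over local background, used here to describe peaks within a list. Merged over libraries, the widest acetylated start regions were those of Ube2c (4530 bp), Birc5 (3899 bp), Ccnb1 (3783 bp), Wee1 (3605 bp) and Aurka (3347 bp). The narrowest were those of Cdc25c (693 bp), Cdc25b (734 bp), Bub1 (874 bp) and Nusap1, whose start held separate regions of 1171 and 1174 bp. Some start regions also held the start of a neighbour, namely Kif20a (Brd8), Aurka (Cstf1), Foxm1 (Rhno1), Ncapd2 (Mrpl51) and Nusap1 (Oip5). Their ranks, folds and widths therefore cannot be assigned to the mitotic gene alone.

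**Figure D2:**
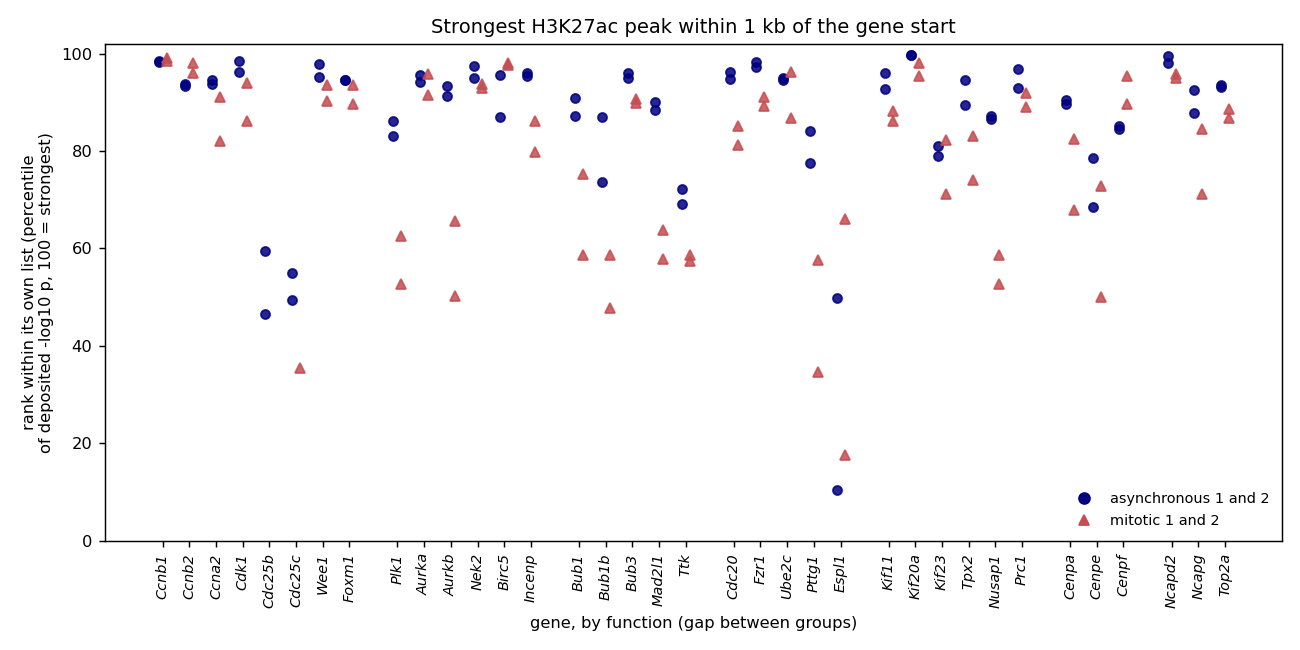
Rank of the strongest H3K27ac peak within 1 kb of each gene start (x axis, genes by function) within its own list (y axis, percentile of the deposited −log10 p, linear). Circles are the 2 asynchronous and triangles the 2 mitotic libraries, 1 point per library with a peak. Most points lie in the upper part of each list, with Espl1, Cdc25b and Cdc25c among the low ones in asynchronous cells.

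Away from the starts of these genes, a smaller share of acetylated regions was listed in both states. Overlapping peaks of the 4 H3K27ac libraries were merged into regions. A region in both asynchronous libraries was called kept when both mitotic libraries listed it, lost when neither did and intermediate when 1 did. Of 134 asynchronous regions by the 36 genes, 76 were kept (56.7%), 17 intermediate and 41 lost (30.6%), against 46.1% kept and 39.4% lost of 32482 regions in the genome. At the genes' own starts 36 of 38 regions were kept and 1 was lost. At the starts of neighbouring genes within the window, 24 of 38 were kept and 8 lost. Together 60 of these 76 start regions were kept, against 67.7% of start regions in the genome, and 9 were lost, against 18.9%. More than 1 kb from every start, 16 of 58 were kept (27.6%, against 35.0% in the genome) and 32 lost (55.2%, against 49.9%). Without asynchronous 1 the lost regions of this kind numbered 51. Each of the 36 genes had at least 1 asynchronous region (69.6% of all genes) and at least 1 kept region (56.0% of all genes and 80.4% of genes with an asynchronous region). At least 1 lost region was found by 18 of 36, against 54.4% of genes with an asynchronous region. Regions listed in both mitotic and no asynchronous library, called mitotic-only, numbered 11 by 10 genes, against 20.9% of all genes with such a region. A called peak can be listed in several pieces, so counts of regions are not counts of separate elements.

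**Figure D3:**
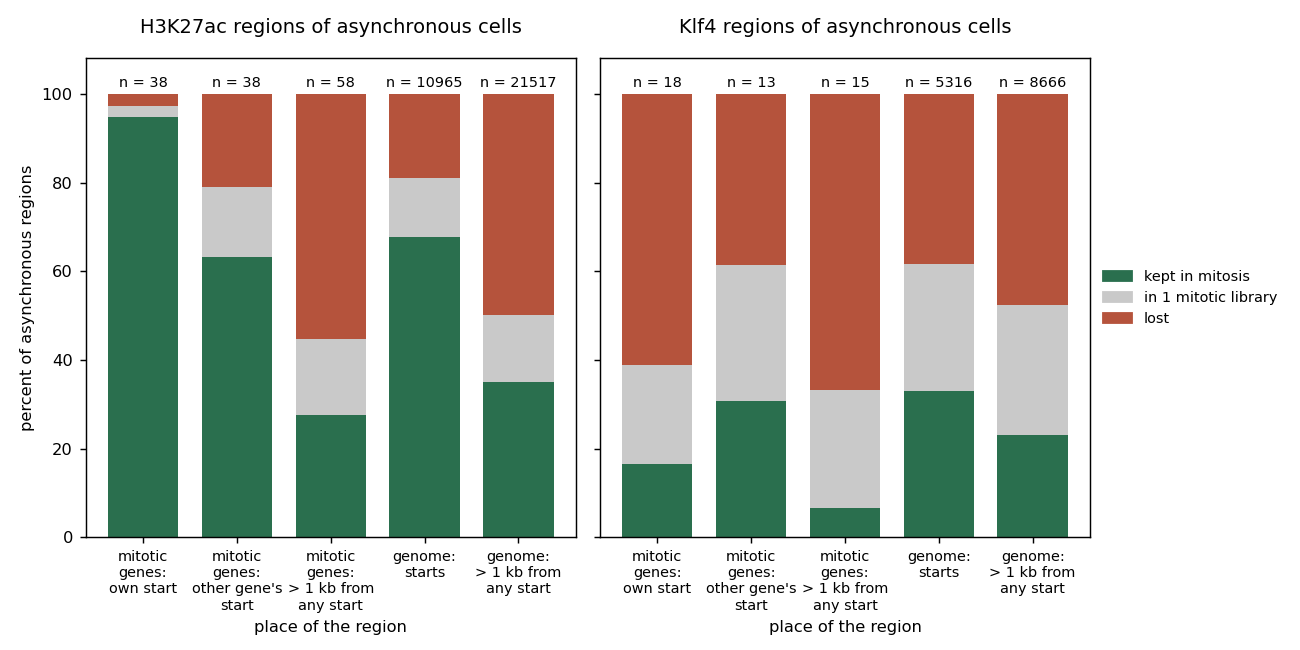
Share of asynchronous H3K27ac regions (left) and Klf4 regions (right) that were kept, listed in 1 mitotic library, or lost (y axis, percent; n above each bar), by place. The mitotic gene bars are own starts, starts of other genes and regions over 1 kb from any start, beside the 2 genome-wide bars; H3K27ac was kept at 36 of 38 own-start regions and Klf4 at 3 of 18.

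Among the 8 entry switch genes, 28 asynchronous H3K27ac regions were found, with 13 kept and 10 lost. The kept regions included ones at the starts of Cenph (by Ccnb1), Exosc9 (by Ccna2), Cenpb and Ap5s1 (by Cdc25b) and Fam53c (by Cdc25c). Ccnb1 and Ccnb2, the B-type cyclins, had no lost region. Ccnb1 (chr13:100778739-100786486) had start folds of 23.8 and 23.6 in asynchronous libraries, followed by 18.4 and 17.5 in mitotic libraries, with 3 regions kept of 3. Ccnb2 (chr9:70407689-70421554) had 1 region, at its start, with folds of 15.6, 14.3, 19.8 and 16.1 in the same order. Ccna2, cyclin A, had start folds of 23.0, 23.0, 8.14 and 12.1. Both cyclin B genes were thus listed as acetylated in every library, and neither had a Klf4 start peak in more than 1 library.

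Cdk1 (chr10:69335146-69352912), the kinase of mitotic entry, kept its start peak, at folds of 36.3, 26.4, 13.4 and 9.80. It had 4 lost regions around it. The strongest, chr10:69326625-69328558, lay 6.59 kb outside the gene span and had folds of 11.7 and 13.3 in asynchronous libraries. A further pair lay upstream of the start, at 5.33 and 7.14 kb, with asynchronous folds of 5.89 and 4.74 and of 4.07 and 5.50. A Klf4 peak lay between this pair, 6.87 kb from the start, at folds of 6.55, 2.93 and 5.18 in asynchronous cells, and no mitotic library listed it. Inside the gene, 8.81 kb from the start, a mitotic-only region had folds of 5.38 and 3.76. The Cdk1 locus therefore held kept, lost and mitotic-only acetylation within its window.

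Cdc25b (chr2:131186436-131198511), a phosphatase that activates Cdk1, had start folds of 5.70 and 7.18 in asynchronous libraries and no mitotic peak. Its other 4 lost regions lay 9.99, 17.0, 17.9 and 18.7 kb from the start, with asynchronous folds between 4.92 and 7.47. A region 6.05 kb away, chr2:131178812-131180897, was kept at folds of 6.86, 11.2, 5.75 and 4.90. Lost regions in the window of this gene were thus found at the start and in the outer upstream part, with a kept region between them. The kept region lay at the start of Cenpb, and Spef1 had the start nearest to the 4 lost upstream regions. Cdc25c had start folds of 5.86 and 5.48, none in mitotic 1 and 4.34 in mitotic 2. A neighbouring region of Cdc25c, 7.15 kb from the nearer gene end, was kept at 16.0, 15.9, 10.8 and 11.3.

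Wee1, the kinase that restrains Cdk1, kept its start peak at folds of 23.7, 27.6, 13.1 and 11.5. A region 3.23 kb from the nearer gene end was lost, with asynchronous folds of 9.08 and 7.69. Foxm1, a transcription factor that drives late cell cycle genes, had start folds of 24.1, 22.2, 13.1 and 11.2. A mitotic-only region inside Foxm1, 2.73 kb from the gene end nearest to it, had folds of 4.36 and 4.32.

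The mitotic kinases and passenger complex genes had 29 asynchronous regions, of which 15 were kept and 10 lost. The kept regions included ones within 1 kb of the starts of Tmem107 (by Aurkb) and Tha1 (by Birc5). All 6 kept the start peak. Aurkb (chr11:69045624-69051664), the kinase of the passenger complex, had start folds of 21.5, 18.1, 4.41 and 5.67. A region 15.8 kb from it, chr11:69022514-69029860, had folds of 3.84 and 5.54 in asynchronous libraries, at ranks of 8.21 and 46.4. The same region had folds of 16.3 and 15.2 in mitotic libraries, at ranks of 96.5 and 95.3. It was 7347 bp wide and counted as kept, since all 4 libraries listed it. On the other side of Aurkb, 3 regions at 7.38, 8.06 and 10.8 kb, by the start of Borcs6, were lost, with asynchronous folds between 3.91 and 7.68.

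Birc5 (chr11:117849237-117855743), which encodes survivin, had start folds of 12.7, 22.6, 18.1 and 20.5. It had 5 lost regions, at 10.6 to 17.6 kb, with asynchronous folds between 3.92 and 6.47. Incenp, the scaffold of the passenger complex, had start folds of 27.3, 24.4, 7.39 and 9.84. Nek2, a centrosomal kinase, had start folds of 29.0, 18.4, 9.96 and 11.0 and lost regions at 3.61 and 17.7 kb. Plk1, polo-like kinase, had its start region alone, at 15.3, 13.1, 5.52 and 5.19. Aurka, the spindle pole kinase, had start folds of 17.9, 19.0, 11.6 and 15.9. In this group the start peaks of all genes were shared by the states, while the lost regions belonged to Aurkb, Birc5 and Nek2.

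The 5 spindle checkpoint genes had 16 asynchronous regions, with 7 kept and 9 lost. A kept region by Bub1 lay at the start of Mtln. All 5 starts were kept. Bub1, a checkpoint kinase of the kinetochore, had start folds of 16.0, 18.5, 5.23 and 7.31. Bub1b, which encodes BubR1, had 9.39, 15.1, 5.23 and 4.18, and Bub3, their binding partner, had 24.9, 22.1, 10.8 and 11.8. Bub1b had 4 lost regions, the strongest of them chr2:118586605-118587877, 10.3 kb upstream, at asynchronous folds of 13.0 and 9.61. Bub1b also had a mitotic-only region in its body, with folds of 4.85 and 5.34. The region of Bub3 that was lost, at folds of 5.03 and 4.07, lay at the start of Hmx3.

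Mad2l1 (chr6:66535221-66541107), which encodes the checkpoint protein Mad2, had start folds of 18.3, 16.5, 5.76 and 4.17. A mitotic-only region, chr6:66525497-66527827, lay 7.39 kb from its start, with folds of 11.0 and 11.0 at ranks of 90.5 and 89.0. Next to it, at 6.09 kb, a region was lost that had asynchronous folds of 5.37 and 5.77. Among the 11 mitotic-only regions by these genes, the folds of the Mad2l1 region were above those of the other 10. Ttk, the kinase Mps1, had start folds of 8.52, 8.71, 5.23 and 5.48 and a mitotic-only region 10.7 kb away at 6.11 and 4.61.

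Around the 5 genes of the anaphase-promoting complex and anaphase, 15 of 20 asynchronous regions were kept and 3 lost. The kept regions included ones within 1 kb of the starts of Hmg20b, Mfsd12, Dohh, Snx21, Slu7, Mfsd5, Pfdn5 and Myg1. Counts of a function group therefore also depend on neighbouring starts within the window. Cdc20, an activator of the complex, had start folds of 23.8, 25.1, 9.01 and 8.44 and Fzr1, the other activator, 26.3, 22.0, 10.5 and 12.1. Ube2c (chr2:164769929-164772902), its ubiquitin-conjugating enzyme, had start folds of 16.7, 16.1, 15.6 and 10.1. A region 6.26 kb from Ube2c, chr2:164760316-164763669, had folds of 4.70 and 4.64 in asynchronous libraries, at ranks of 26.1 and 22.8, and of 14.8 and 14.1 in mitotic libraries, at ranks of 95.4 and 94.1. The regions by Ube2c, Aurkb and Mad2l1 were singled out after their values were seen. Their folds and ranks describe each list by itself. The states came from different projects, so the values of Ube2c and Aurkb are not a measured change between states. Pttg1, which encodes securin, had start folds of 10.6, 13.4, 3.75 and 4.99. Its window held mitotic-only regions at 13.5 kb (3.49 and 4.90) and 14.6 kb (6.98 and 4.90) and a lost region at 7.21 kb (5.70 and 4.64 in asynchronous libraries). This lost region lay 143 bp from the start of Slu7. Espl1 had a mitotic-only region just outside its far end, 456 bp from the start of Pfdn5, at 7.85 and 5.19. Fzr1 had a mitotic-only region at 4.65 and 3.75. The lost regions of Fzr1 lay by the starts of Hmg20b (7.49 and 8.08) and 4930404N11Rik (5.09 and 4.20).

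Spindle and cytokinesis genes had 24 asynchronous regions, with 18 kept and 5 lost. Here too the kept regions included ones at the starts of neighbours, namely Cdc23, Rplp1, Hhex, Bcl2l1, Ndufaf1 and Rccd1. Kif11, the motor Eg5, had start folds of 22.2, 16.9, 9.30 and 10.7. It lost a weak region 13.6 kb upstream (3.54 and 3.92) and had a mitotic-only region in its body, 20.0 kb from the start (5.52 and 3.75). Tpx2, an activator of Aurora A, had start folds of 22.8, 13.4, 6.69 and 8.94, with 3 lost regions inside the gene at asynchronous folds between 4.98 and 7.21 and a mitotic-only region at 4.36 and 5.34. Kif20a had 1 lost region, 4.04 kb from its span, at 7.35 and 5.54. Kif23, a kinesin of the midbody, had start folds of 9.83, 7.95, 6.64 and 6.13. Prc1, a microtubule bundler of the midzone, had 22.0, 27.3, 11.9 and 11.0, and Nusap1, a spindle protein, had 14.9, 13.0, 4.12 and 4.84. Kif23, Prc1 and Nusap1 had no lost region.

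The 3 centromere genes had 6 asynchronous regions, 3 of them kept, and the 3 kept regions were the starts. Cenpa, the centromeric histone, had start folds of 17.0, 16.6, 8.15 and 6.12 and lost regions 5.70 and 6.58 kb upstream (6.36 and 4.36, and 7.69 and 5.82). Cenpe, a kinetochore kinesin, had 7.73, 9.48, 4.06 and 6.73, and Cenpf, a large kinetochore protein, had 10.0, 11.0, 14.8 and 11.3. The 3 condensation genes had 11 regions, with 5 kept, 4 intermediate and 2 lost. A kept region by Ncapd2 lay at the start of Gapdh. Ncapd2 and Ncapg, subunits of condensin I, had start folds of 34.2, 23.9, 15.4 and 14.9 and of 16.3, 20.5, 8.48 and 5.70. Top2a, topoisomerase II, had 18.0, 17.7, 10.2 and 10.1. A region inside Ncapd2 was lost (11.3 and 5.49), as was a region by Top2a at the start of Igfbp4 (5.30 and 4.40).

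Klf4 was listed by more of the genes in asynchronous than in mitotic cells, in numbers that depended on the peaks admitted. A region counted as asynchronous when at least 2 of 3 libraries listed it, as kept when at least 2 of 3 mitotic libraries did as well, and as lost when none did. By this rule 26 of 36 genes had an asynchronous Klf4 region (50.6% of all genes) and 7 of these 26 a kept one (21.9% of all genes and 43.2% of genes with an asynchronous region). At least 1 lost region was found by 17 of 26 (58.2%), and 11 of 26 had lost regions alone (28.3%). Of 46 regions, 8 were kept (17.4%), 12 intermediate and 26 lost (56.5%), against 26.9% kept and 44.0% lost of 13982 regions in the genome. Within 1 kb of any gene start, 7 of 31 Klf4 regions were kept and 16 lost, against 32.9% and 38.4% in the genome. Farther from every start, 1 of 15 was kept and 10 lost, against 23.2% and 47.5%. With a Klf4 library left out, both remaining libraries of its state had to list a region. Without asynchronous 2 or asynchronous 3, 13 and 16 genes had an asynchronous region (32.0% and 37.3% of all genes). Without mitotic 1 or mitotic 3, 2 and 4 genes had a kept one (12.5% and 12.4% of all genes). The 26 genes with an asynchronous region became 12 at a −log10 q of at least 5 (33.8% of all genes), 7 with lists of equal length (17.5%) and 8 within the gene span alone (27.04%). Those with a kept one became 2 (4.47% of all genes), 3 (9.65%) and 1 (9.72%) in the same order.

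At the starts, Klf4 peaks were listed for 16 of 36 genes (25.3% of all genes). Of these 16, 3 were kept (9.43% of all genes had a start peak in at least 2 mitotic libraries, and 35.2% of genes with an asynchronous start peak kept it), 9 were listed in no mitotic library (35.4%) and 4 in 1. Birc5 was the only one of the 36 genes with a Klf4 start peak in all 6 libraries, at folds of 8.86, 4.50 and 8.41 in asynchronous 1, 2 and 3 and 6.74, 4.52 and 4.72 in mitotic 1, 2 and 3. Wee1 had folds of 4.72, 3.08 and 6.16, then 4.76 and 6.07 in mitotic 1 and 2 and no peak in mitotic 3. Prc1 had 3.93, 3.70 and 4.41, then 4.76 and 4.72 in mitotic 1 and 2 and none in mitotic 3. The mitotic peaks of Wee1 and Prc1 thus came from project EC-DG-3514 alone. Within project EC-EA-3702 both starts had a peak in asynchronous 3 and none in mitotic 3. Birc5 and Prc1 had promoters in the table, and both held CACCC (capitals in their sequences above), as did 2 of 3 intermediate genes with a promoter in the table, 2 of the 9 genes of the lost set and 6 of 14 with no asynchronous call. GGGCGG was in 2 of 2 kept, 3 of 3 intermediate, 7 of 9 lost and 7 of 14 with no asynchronous call. These numbers of genes are small, and the motif shares were not tested.

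The 9 genes whose Klf4 start peaks were lost were Cdk1, Nek2, Mad2l1, Ttk, Cdc20, Ube2c, Pttg1, Kif11 and Kif23. Cdk1 had folds of 4.50 and 8.49 in asynchronous 2 and 3 and Ube2c of 3.03 and 8.77. Cdc20 alone of this set had a start peak in all 3 asynchronous libraries, but no single region was listed in all of them. Its region 76 bp from the start had folds of 3.90 and 4.92 in asynchronous 2 and 3. Its region 638 bp from the start had 4.24 and 2.95 in asynchronous 1 and 2. The remaining genes of the set had folds between 2.48 (Pttg1) and 4.07 (Ttk) in asynchronous 2, a list whose median fold was 3.29, and between 3.56 (Ttk) and 5.43 (Kif11) in asynchronous 3. All 9 kept H3K27ac at the start in both mitotic libraries. Mad2l1 and Ttk were the spindle checkpoint genes with Klf4 at the start, and neither had it in a mitotic library. Of the 5 genes of the anaphase-promoting complex and anaphase, 4 had Klf4 at the start, with 3 lost and Fzr1 listed in mitotic 1 alone (3.74 and 6.75 in asynchronous 2 and 3, 5.29 in mitotic 1).

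Ccna2, Cenpf and Ncapg were each listed at the start in mitotic 3 alone among mitotic libraries, at folds of 4.46, 4.33 and 3.31. These start counts depended on list length. With every Klf4 list cut to its 3795 strongest peaks, 2 starts had an asynchronous call (5.37% of all genes). Of these, 2 were kept and 0 lost, against 57.4% and 16.3% of all genes with such a call. Without asynchronous 2, or without asynchronous 3, 5 starts had an asynchronous call (13.999% and 14.72% of all genes). Each time 1 of these was lost, against 24.3% and 26.4% of all genes with such a call. Without mitotic 1, or without mitotic 2, 1 start was kept, against 17.8% and 26.2% of all genes with such a call. Within project EC-EA-3702, a peak in asynchronous 3 was listed at 21 starts, of which 4 had a peak in mitotic 3 and 17 did not, where 61.1% of all genes with such a start peak had none in mitotic 3.

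**Figure D4:**
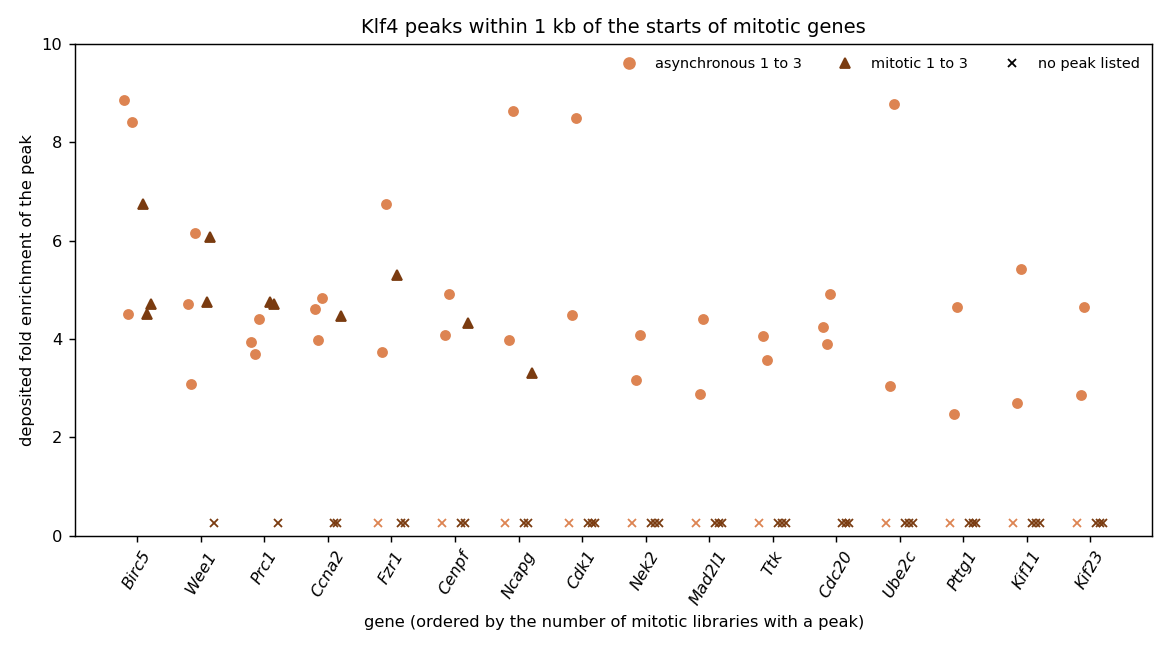
Deposited fold (y axis, linear) of the strongest Klf4 peak within 1 kb of the start of the 16 genes with an asynchronous call (x axis, ordered by the number of mitotic libraries with a peak). Circles are asynchronous 1 to 3, triangles mitotic 1 to 3, and crosses near 0 mark libraries with no listed peak. Birc5 has 6 points, Wee1 and Prc1 have 5 each, and the 9 genes on the right have no mitotic point.

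Outside the starts of the 36 genes, 5 further Klf4 regions were kept. Of these 5 regions, 4 lay within 1 kb of the start of another gene and 1 lay farther from every start. The window of Ube2c held 2 of them, chr2:164785633-164786266 (5.57, 3.05 and 4.33 in asynchronous, 5.29 and 4.55 in mitotic 1 and 3) and chr2:164788408-164788858 (6.16, 3.92 and 8.77, then 4.33 and 5.20). So the window of Ube2c had lost Klf4 at the gene start and kept Klf4 at 15.7 and 18.5 kb. The nearer of these kept regions lay inside the kept H3K27ac region at the start of Snx21. Aurka had a kept region on the far side of the gene, at the start of Fam210b, chr2:172345236-172345714. Its folds were 4.14 and 13.1 in asynchronous 2 and 3 and 8.12, 5.08 and 5.19 in the mitotic libraries. The Klf4 region by Aurkb, by the start of Borcs6, had folds of 4.92, 2.52 and 11.0 in asynchronous libraries and of 6.92 and 3.74 in mitotic 1 and 3, although H3K27ac regions beside it were lost. Fzr1 had a kept region at 5.72 kb, at 3.03 and 4.33 in asynchronous 2 and 3 and 4.76 and 4.27 in mitotic 1 and 3.

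Lost Klf4 regions away from the starts included 4 around Birc5, at 10.4, 14.2, 16.6 and 17.3 kb, with asynchronous folds between 3.12 and 9.25. The Birc5 locus thus combined a start peak in all libraries with 4 flanking regions listed in asynchronous cells alone. Wee1 had a lost region at 4.88 kb (2.84 and 9.40 in asynchronous 2 and 3). Bub1b had a lost region inside the gene, at 5.01, 3.71 and 4.75. Single mitotic libraries listed regions by Mad2l1 at 6.47 kb (4.33 in mitotic 1), Foxm1 at 6.97 kb (6.26 in mitotic 1), Kif20a at 4.73 kb (7.30 in mitotic 3), Ncapd2 at 29.7 kb (3.79 in mitotic 3) and Aurkb at 11.8 kb (5.42 in mitotic 3). A Klf4 region inside Fzr1, 1.50 kb from its start, had 6.23, 4.33 and 8.41 in asynchronous cells and 6.37 in mitotic 3. Both Tpx2 regions were intermediate, at 3.89 in mitotic 1 and 4.72 in mitotic 2. Lost regions by Espl1, Fzr1, Kif11, Kif20a and Kif23 had asynchronous folds between 2.34 and 6.12, and those by Bub1 and Incenp are given with Oct4.

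Oct4 and Sox2 were listed by few of these genes and at hardly any start. An asynchronous Oct4 region was found by 5 of 36 genes (13.6% of all genes), namely Aurkb, Bub1, Cdc25b, Incenp and Nek2, and 2 of the 5 had a kept one (3.33% of all genes and 24.4% of genes with an asynchronous region). No Oct4 peak lay at a start (0 of 36, against 1.69% of all genes in the asynchronous and 0.265% in both mitotic libraries). An asynchronous Sox2 region was found by 6 of 36 (10.9%), namely Bub1, Cdc25c, Cenpa, Fzr1, Kif11 and Ncapd2, and 1 of the 6 had a kept one (4.44% and 40.8% on the same bases). Ncapd2 had a Sox2 peak at its start (1 of 36, against 0.603% of all genes), at a fold of 4.92 in asynchronous cells and in no mitotic library. Over all genes, 0.196% had a Sox2 start peak in both mitotic libraries, and 44.7% of genes with an asynchronous Sox2 start peak had none in mitosis. No region listed in at least 2 mitotic and no asynchronous library was found by the 36 genes for Klf4, Oct4 or Sox2 (0 of 36 each, against 0.562%, 1.11% and 1.28% of all genes). All 6 asynchronous Oct4 regions lay over 1 kb from every start, with 2 kept and 3 lost, against 25.9% and 33.2% in the genome. Of the 5 Sox2 regions at that distance 1 was kept and 3 were lost, against 41.5% and 27.7%, and both Sox2 regions within 1 kb of a start were lost, against 44.0%. Lost regions were found by 2 of the 5 genes with Oct4 (45.5%) and 4 of the 6 with Sox2 (35.2%), and those genes had lost regions alone (37.6% and 29.1%). Without Sox2 mitotic 2, the shorter of the mitotic Sox2 lists, 2 genes had a kept region (7.42% of all genes). A peak in mitotic 1 then sufficed for the mitotic part of the call.

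Bub1 was the only one of the 36 genes with both Oct4 and Sox2 kept. The Oct4 region, chr2:127839403-127839882, lay 7.54 kb upstream of the start and had folds of 7.81 in asynchronous cells and of 7.44 and 5.85 in mitotic 1 and 2. The Sox2 region, chr2:127839521-127839823, had folds of 5.83, then 5.50 and 4.62, the last with a −log10 q of 1.18. Klf4 was listed at the same place, chr2:127839505-127839780, at 4.62 and 3.29 in asynchronous 1 and 2, and in no mitotic library. The H3K27ac regions on either side, chr2:127838805-127839525 (9.36 and 7.24) and chr2:127839779-127840858 (3.76 and 4.74), were lost. So Oct4 and Sox2 peaks were listed in both states where H3K27ac and Klf4 peaks were listed in asynchronous cells alone. The Sox2 call was not held under stricter lists: with lists of equal length, or at a −log10 q of at least 5, no gene of the 36 had a kept Sox2 region. The Oct4 peaks of Bub1 had −log10 q values of 9.49, 6.24 and 5.44.

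**Figure D5:**
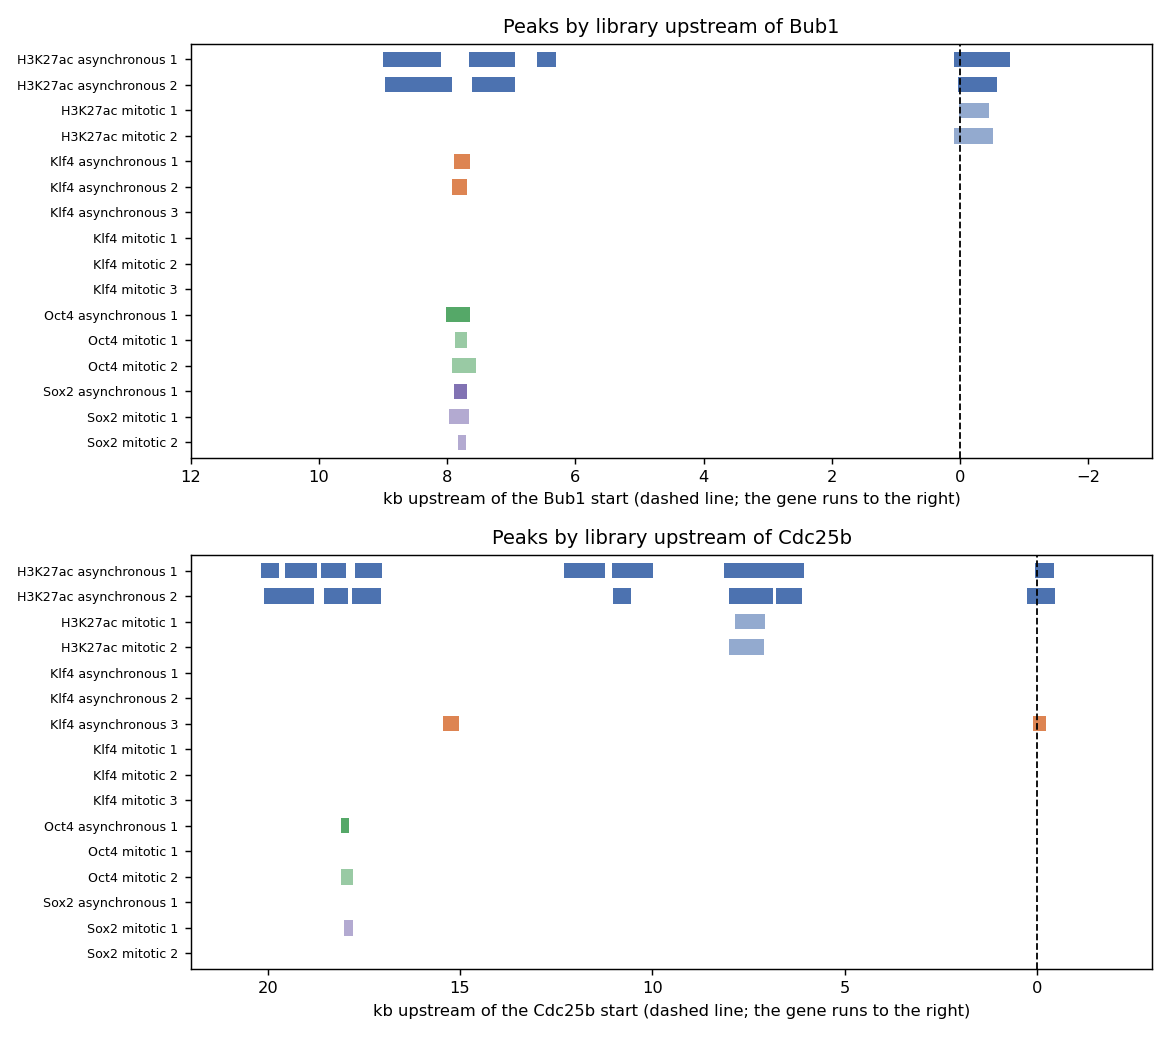
Listed peaks of the 16 libraries (rows) upstream of Bub1 (top) and Cdc25b (bottom), by distance from the gene start in kb (x axis, 0 at the dashed line, gene to the right); solid bars are asynchronous and pale bars mitotic peaks. Upstream of Bub1, Oct4 and Sox2 have bars in all 6 of their libraries near 8 kb, where H3K27ac has bars in asynchronous libraries only, and the start of Cdc25b has no mitotic bar.

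Incenp had the other kept Oct4 region, chr19:9860847-9861108, 11.2 kb outside the gene span, at 7.38 in asynchronous cells and 4.77 and 9.64 in mitotic 1 and 2. Klf4 was listed there, chr19:9860893-9861132, at 9.24 and 6.74 in asynchronous 1 and 2 and in no mitotic library. The 2 H3K27ac regions at this place, of 6.47 and 4.94 and of 6.18 and 7.30 in asynchronous cells, were each listed in mitotic 1 alone (3.52 and 3.49). At Incenp, as at Bub1, Klf4 asynchronous 3 listed no peak, although it came from the project of the Oct4 libraries.

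By Cdc25b, 17.8 kb upstream of the start, Oct4 had a fold of 4.70 in asynchronous cells and 4.38 in mitotic 2, and Sox2 was listed in mitotic 1 alone, at 4.94. Inside Kif11, 24.5 kb from the start, Sox2 had 5.25 in asynchronous cells and 4.67 in mitotic 1, within a kept H3K27ac region (7.47, 6.95, 4.38 and 3.66). Oct4 was listed at the same place in mitotic 2 alone, at 4.89. Oct4 regions by Aurkb (5.22) and Nek2 (6.07 and 3.78) and Sox2 regions by Cdc25c (4.69), Cenpa (5.51), Fzr1 (4.48) and inside Ncapd2 (4.65) were listed in the asynchronous library and in no mitotic library. Oct4 mitotic 2, whose list of 5282 peaks was the longest for Oct4, alone listed 7 regions, by Birc5 (7.39), Bub1b (5.80 and 5.93), Cdc25b (4.09), Kif11 (4.89), Kif20a (4.57) and Nusap1 (4.57). With 1 asynchronous library for Oct4 and Sox2, these differences between states have no replicate check in asynchronous cells.

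A list of 64 other mitotic genes gave a comparison. Of these, 63 had H3K27ac at the start in both asynchronous and 58 in both mitotic libraries, beside 36 and 34 of the 36 genes. Klf4 was listed at 31 starts in asynchronous cells, with 11 kept and 10 lost, beside 16 starts with 3 kept and 9 lost. Over all Klf4 regions of the 64 genes, 32 of 98 were kept and 35 lost, beside 8 of 46 kept and 26 lost by the 36 genes. The difference between the lists was not tested.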

How the data were processed

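ChIP-seq peaks were read from 16 stem cell lists and 1 list of a mix, 1 deposited list per library; the 7 inputs had no list of their own in the files used here. Per the submitters' processing notes, cutadapt 1.8.1, Bowtie2 2.2.5, deepTools 2.3.6 and MACS2 2.1.1 were used, on mm10. In the deposited lists a peak has a whole-number score, a fold enrichment (a ratio over local background), and a p and q that the authors give as −log10 values. No peak was listed below a −log10 p of 5, and read depth is unknown.

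The 36 genes, the lists and the motifs were chosen with earlier results of these data known. Genes came from the GRCm38.p6 (mm10) table of RefSeq, and starts from its promoter table (28 of the 36 genes, 17492 of 21887 in all). Otherwise both ends of the span were used. Peaks of an antibody sharing at least 1 bp were merged and called kept, lost, intermediate or mitotic-only as defined in the text. Distances are from the nearest edge of a region. Values per library are given for genes with a start peak missing in a library or state, a factor region, a lost or mitotic-only region, or a start region among the 5 widest or narrowest. Counts are set beside those over all genes, with no test and no p-value. Scripts were tested on simulated peaks and used Python 3.11.15, numpy 2.4.6, pandas 2.3.3 and matplotlib 3.10.9. Alternatives were a −log10 q of at least 5, lists of equal length, other windows, another overlap, other library rules, leaving out each library and, for Klf4, a single project.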

Additional observations from a re-analysis of the deposited data

How the results depend on the processing

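H3K27ac counts at gene starts, and counts of genes with an asynchronous or kept H3K27ac region, stayed within 1.5 times of the reported ones under all settings tried. Of 95 values under settings other than leaving out a library, 58 were within 1.5 times, as were 50 of 62 values with a library left out. The cause of the shifts was not tested unless the setting itself holds fewer peaks or a shorter window.

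Percentages here are of all genes, and for kept or lost starts of genes with an asynchronous start call. With a −log10 q of at least 5, Klf4 was asynchronous by 12 genes (33.8%) and kept by 2 (4.47%). At the starts 5 were asynchronous (14.1%), 1 kept (9.37%) and 4 lost (61.4%). Oct4 was then asynchronous by 2 (5.77%) and kept by 1 (0.813%), and Sox2 by 0 (4.26%) and 0 (1.30%). Kept H3K27ac regions over 1 kb from every start numbered 7. With lists of equal length, Klf4 was asynchronous by 7 genes (17.5%) and kept by 3 (9.65%). At the starts 2 were then asynchronous (5.37%), 2 kept (57.4%) and 0 lost (16.3%). Oct4 was asynchronous by 2 (5.40%) and kept by 1 (1.86%), and Sox2 by 3 (7.22%) and 0 (3.33%). With the gene span alone, Klf4 was asynchronous by 8 genes (27.04%) and kept by 1 (9.72%). Oct4 was asynchronous by 0 (5.89%) and kept by 0 (1.64%), and Sox2 by 2 (4.84%) and 0 (2.11%). H3K27ac regions over 1 kb from every start numbered 1 kept and 5 lost. With 50 kb around the gene, Oct4 was asynchronous by 11 (22.4%) and kept by 4 (5.65%), Sox2 was asynchronous by 10 (18.1%), and 32 such H3K27ac regions were kept. With any 1 library of a state, Klf4 was kept by 15 genes (41.3%) and Sox2 by 2 (7.70%). Klf4 starts then numbered 7 kept (50.7%) and 16 lost (49.3%), and such H3K27ac regions numbered 28 kept and 51 lost. Within project EC-EA-3702, 17 Klf4 starts were lost (61.1%).

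Leaving out each library in turn gave 13 to 26 genes with an asynchronous and 2 to 7 with a kept Klf4 region, 5 to 16 Klf4 starts asynchronous, 1 to 3 kept and 1 to 12 lost, 1 to 2 genes with a kept Sox2 region, and 34 to 51 lost H3K27ac regions over 1 kb from every start. Where leaving out a library left 1 in its state, that library alone decided the call, and where it left 2, both had to list a peak. These ranges therefore hold the change of rule as well as the missing library. The start windows, the 50% overlap and the settings on known starts moved none of their values by over 1.5 times. No paired analysis was possible because no model was fitted that could take the replicate number as a block, and the H3K27ac numbers shared by the states belong to different projects. For Klf4, the comparison within project EC-EA-3702 holds 1 library of each state. Read depth was not in the lists, so a missing peak may be a peak below the calling threshold.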
